A study of Mus musculus with 6 samples.

Results

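Thy1 and the Ly6 genes encode small surface proteins that are held in the outer leaflet of the cell membrane by a glycosylphosphatidylinositol (GPI) anchor, and 9 of them were looked for by gene symbol on the arrays: Thy1, Ly6a, Ly6c1, Ly6c2, Ly6d, Ly6e, Ly6g, Ly6i and Ly6k. A gene was taken where a probe set carried its symbol and no other. Among several such probe sets 1 was to be chosen by its mean value over the 6 arrays, but each gene found had only 1. This gave 6 of the 9 genes, out of 19938 genes measured in all: Thy1 on chromosome 9, and Ly6d, Ly6e, Ly6g, Ly6i and Ly6k on chromosome 15. Ly6c1 and Ly6c2 share their 2 probe sets and so have no value of their own, and no probe set carries the symbol Ly6a.

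In the mouse these proteins are the antigens by which blood cells are sorted. Thy1 (CD90), a single immunoglobulin-type domain, marks T cells and neurons and is found at a low level on blood stem cells. Ly6a is Sca-1, the antigen behind the S of the LSK fraction (lineage-negative, Sca-1 positive, Kit positive), Ly6c marks monocytes, and Ly6g is the neutrophil antigen of the Gr-1 and 1A8 antibodies. The Ly6 proteins fold into a small three-fingered domain held by disulfide bonds, and several of their genes respond to interferon.

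The 3 HoxA9AA/Meis1 mice and the 3 HoxA9wt/Meis1 mice were lethally irradiated CD45.1+ recipients of CD45.2+ donor LSK cells into which Meis1 and a HoxA9-GFP construct had been introduced. The construct carried an altered form, named HoxA9AA by the depositors, in the first group and wild-type HoxA9 in the second, and Meis1 was common to both. Bone marrow cells were taken at disease onset and each mouse was measured on 1 Affymetrix whole-transcript array. The sources used here give no strain, sex, age, vector or promoter, and whole marrow holds donor and host cells together. All values are log2 signals, where a step of 1 is a 2-fold change.

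The arrays were not equally alike. Across genes, HoxA9AA replicate 2 correlated with the HoxA9wt arrays at r = 0.989 to 0.991, as closely as those arrays with each other (0.987 to 0.990), while HoxA9AA replicates 1 and 3 lay at 0.958 to 0.966 and 0.968 to 0.970. As a gauge of background, 95% of 1027 olfactory receptor genes lay below 6.52 to 6.72 depending on the array. The Y-linked gene Eif2s3y measured 4.73, 9.45 and 7.84 in HoxA9AA replicates 1, 2 and 3, against 9.55, 9.35 and 9.69 in HoxA9wt replicates 1, 2 and 3. Uty and Kdm5d, also Y-linked, measured 4.79, 8.44 and 7.36 and 6.48, 9.18 and 8.59 in the HoxA9AA mice. In the HoxA9wt mice they measured 8.90, 8.47 and 8.38 and 8.98, 8.77 and 8.84. In HoxA9AA replicate 1 all of these lay below the olfactory receptor gauge of that array (6.72), and in replicate 3 they lay above 6.72. In limma's comparison of the groups 0 of 19938 genes (0%) had an adjusted p under 0.05, and 1344 (6.74%) had an unadjusted p under 0.05.

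The sequence upstream of the gene start is shown for the 2 Ly6 genes with the widest spread between mice that have an entry in the RefSeq promoter table (GRCm38.p6). They are Ly6g and its neighbour Ly6a2, a Ly6 gene outside the 9 that was added after its values were seen. Each is the 250 bases before the start, 5′ to 3′ on the gene's own strand, and capitals mark matches on either strand to TTNNGNAA, the form bound by C/EBP factors, and to GAGGAA, the core bound by the myeloid factor PU.1. Ly6g lies at chr15:75155011-75155260 on the plus strand and Ly6a2 at chr15:75135129-75135378 on the minus strand.
Ly6g: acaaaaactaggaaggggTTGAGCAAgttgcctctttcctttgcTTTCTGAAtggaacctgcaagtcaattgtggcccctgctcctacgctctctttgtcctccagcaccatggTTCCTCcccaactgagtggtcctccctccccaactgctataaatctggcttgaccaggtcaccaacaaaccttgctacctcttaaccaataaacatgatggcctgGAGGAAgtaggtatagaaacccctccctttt
Ly6a2: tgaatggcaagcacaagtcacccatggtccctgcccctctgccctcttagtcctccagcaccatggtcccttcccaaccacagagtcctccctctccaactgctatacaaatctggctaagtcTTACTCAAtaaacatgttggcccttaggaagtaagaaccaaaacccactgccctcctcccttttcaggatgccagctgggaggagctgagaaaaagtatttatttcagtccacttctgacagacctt
Ly6g held 2 matches to TTNNGNAA and 2 to GAGGAA, and Ly6a2 held 1 and 0. Of all 32851 windows of this length in the table, 36.8% held a match to TTNNGNAA and 23.3% to GAGGAA, so such matches are common, and the matches did not overlap each other in these windows. A match describes letters and not a bound site. The windows also show how close the Ly6 copies are. Ly6c2 and Ly6a2 were 96.8% identical over the 250 bases after alignment, Ly6g and Ly6f 86.0%, and Ly6g and Ly6a2 76.0%. Where a gene had more than 1 entry, the pair with the most identical bases was taken. By the same measure Ly6g and Ly6g6f, a family member on chromosome 17, reached 59.2%, a level to read the other values against. Close gene copies can share probes, and how far the Ly6 probe sets read each other's transcripts was not tested.

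Thy1 had the largest difference towards higher values in HoxA9AA/Meis1 of all 19938 genes, and it came from 2 of the 3 HoxA9AA/Meis1 mice. Some genes that were lower in HoxA9AA/Meis1 differed by more, such as Mmp8 (−3.54) and Clec4a3 (−2.66). Thy1 measured 10.50, 7.21 and 10.72 in HoxA9AA/Meis1 replicates 1, 2 and 3, against 7.22, 6.91 and 6.86 in HoxA9wt/Meis1 replicates 1, 2 and 3. Replicates 1 and 3 stood far above every other mouse, and replicate 2 stood among the HoxA9wt mice, so the groups overlapped. Relative to the HoxA9wt mean, replicates 1 and 3 were 11.3-fold and 13.2-fold higher and replicate 2 was 1.16-fold higher. The HoxA9wt values lay not far above the level below which 95% of olfactory receptor genes lay (6.52 to 6.65 on those arrays). The size of these folds can therefore depend on the background. The group means were 9.48 ± 1.97 in HoxA9AA/Meis1 and 7.0 ± 0.20 in HoxA9wt/Meis1 (SD, n = 3 each), a difference of 2.48 ± 0.90 (SE; 95% interval 0.32 to 4.64). It did not pass the test over all genes (limma, adjusted p = 0.731). Of all genes, 99.84% had a HoxA9AA SD no larger than that of Thy1. Without HoxA9AA replicate 2 the difference was 3.61 and passed (adjusted p = 0.00827), but that leaves out the HoxA9AA mouse nearest to the HoxA9wt values. Without any 1 of the other 5 arrays it lay between 1.86 and 2.59 and did not pass.

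**Figure D1:**
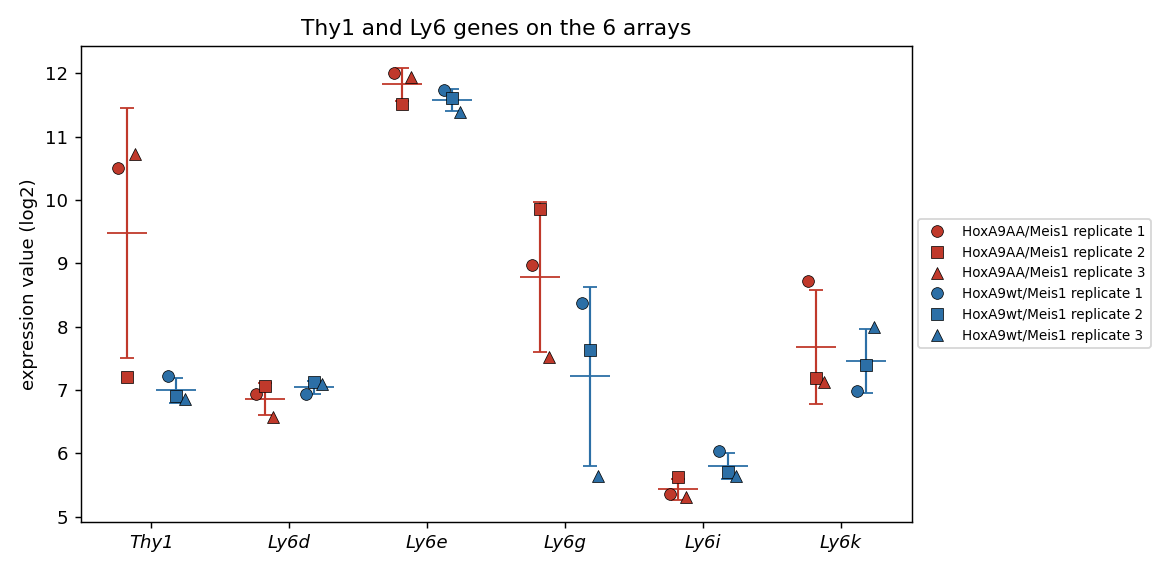
Expression values (log2, vertical axis) of Thy1 and the 5 measured Ly6 genes on the 6 arrays, with HoxA9AA/Meis1 mice in red and HoxA9wt/Meis1 mice in blue; each symbol is a mouse and each bar a group mean ± SD (n = 3). Thy1 stands at 10.50 and 10.72 in HoxA9AA replicates 1 and 3 and no higher than 7.22 elsewhere, while Ly6g is spread widely in both groups.

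The T cell genes were not high in the 2 mice in which Thy1 was high. Of 18 listed T cell genes 15 were measured, 8 with a higher and 7 with a lower mean in HoxA9AA/Meis1 (53.6% and 46.4% of all genes), and 0 passed the test. Their median difference was 0.03 (−0.05 to 0.05 over the arrays left out in turn), against 0.01 over all genes. The mean level over the 15 genes was 6.70, 6.69 and 6.49 in HoxA9AA replicates 1, 2 and 3, against 6.68, 6.65 and 6.58 in the HoxA9wt mice. These means lay close to the level below which 95% of olfactory receptor genes lay (6.52 to 6.72). That limits what most of these genes can show of a small share of T cells. Cd3e, a signalling chain of the T cell receptor complex, measured 7.53, 7.28 and 7.09 in the HoxA9AA mice, against 7.21, 7.07 and 7.13 in the HoxA9wt mice. Cd3g, another chain of that complex, measured 6.24, 6.16 and 5.83 in the HoxA9AA mice, against 6.78, 5.81 and 5.91 in the HoxA9wt mice. In HoxA9AA replicate 1 no T cell gene stood more than 0.39 above its HoxA9wt mean, and in replicate 3 none more than 0.29, where Thy1 stood 3.50 and 3.72 above. The 12 genes of NK and innate lymphoid cells had a median difference of 0.07, and their defining marker Ncr1 measured 5.57, 5.55 and 5.40 in the HoxA9AA mice against 5.69, 5.49 and 5.67 in the HoxA9wt mice. Ncr1 thus lay within the range of the olfactory receptor genes.

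Kit and Erg, genes of stem and progenitor cells, were highest in the same 2 mice as Thy1, Flt3 of the same list was not, and the monocyte list was lowest there. Kit, the stem cell factor receptor, measured 9.96, 8.43 and 10.49 in HoxA9AA replicates 1, 2 and 3, against 8.63, 7.54 and 8.38 in the HoxA9wt mice. As with Thy1, replicates 1 and 3 were the highest of the 6, and replicate 2 lay within the HoxA9wt range (difference 1.44 ± 0.55, SE; limma, adjusted p = 0.731). Erg, an ETS factor of stem cells and endothelium, measured 9.60, 8.74 and 9.43 in the HoxA9AA mice, against 8.42, 8.23 and 8.31 in the HoxA9wt mice, with no overlap. Cd34, a sialomucin of progenitors and endothelium, measured 10.40, 9.16 and 10.33 in the HoxA9AA mice, against 10.14, 7.36 and 9.16 in the HoxA9wt mice, so it stood high in HoxA9wt replicate 1 too. Flt3, a receptor kinase of early progenitors, ran the other way in HoxA9AA replicate 1, at 6.92, 10.13 and 10.85 in the HoxA9AA mice, against 10.21, 9.87 and 10.69 in the HoxA9wt mice. Its difference was −0.96 ± 0.97 (SE; limma, adjusted p = 0.899), and 0.23 without HoxA9AA replicate 1. The 13 measured genes of this list averaged 7.91, 7.63 and 8.44 in the HoxA9AA mice, against 7.74, 7.40 and 7.71 in the HoxA9wt mice. A higher mean was found for 10 of them (53.6% of all genes), with a median difference of 0.44, 3 had an unadjusted p under 0.05 towards higher values (4.15% of all genes did), and 0 passed. That median was 0.22 without HoxA9AA replicate 3 and 0.69 without HoxA9AA replicate 2.
Of 12 monocyte genes 11 had a lower mean (46.4% of all genes did), with a median of −0.57, which was −0.33 without HoxA9AA replicate 1 and −1.03 without HoxA9AA replicate 2. The list averaged 8.79, 10.10 and 9.20 in the HoxA9AA mice, against 10.18, 9.82 and 10.17 in the HoxA9wt mice. Ccr2, the chemokine receptor of classical monocytes, measured 9.97, 12.05 and 11.30 in the HoxA9AA mice, against 12.25, 12.06 and 12.10 in the HoxA9wt mice. In bulk marrow, fewer cells of a type and less RNA per cell cannot be told apart. Eif2s3y was lowest in the same 2 mice in which Thy1 was high, but far lower in replicate 1 (4.73) than in replicate 3 (7.84). The part of cell composition, or of the difference between mice in Y-linked genes, in the Thy1 values was not tested.

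The stromal and endothelial list, whose cells can also carry Thy1, had a median difference of 0.03 over 14 genes. Its defining markers Cdh5, of endothelium, and Col1a1, of collagen-making cells, lay at 6.27, 6.55 and 6.42 and at 7.85, 7.54 and 7.57 in the HoxA9AA mice. In the HoxA9wt mice they lay at 6.44, 6.33 and 6.38 and at 7.60, 7.71 and 7.73. Both ranges overlapped. Pecam1, an adhesion molecule of endothelium and of many blood cells, measured 10.88, 9.87 and 10.94 in the HoxA9AA mice, against 9.84, 8.96 and 9.32 in the HoxA9wt mice. Pdgfrb, the receptor for platelet-derived growth factor, measured 8.71, 6.69 and 8.15 in the HoxA9AA mice, against 6.82, 6.56 and 6.91 in the HoxA9wt mice. Both were thus highest in HoxA9AA replicates 1 and 3 (differences 1.19 and 1.09), and neither passed.

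**Figure D2:**
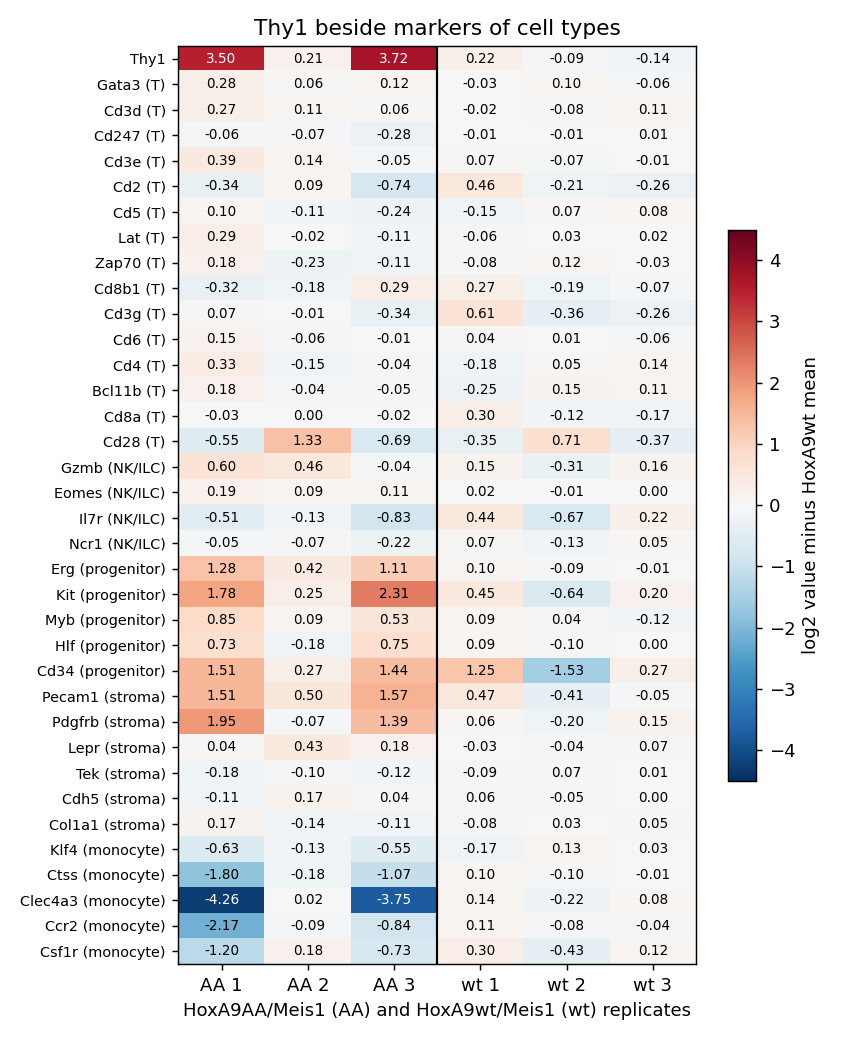
Log2 value minus the HoxA9wt mean (colour and printed number) for Thy1, the 15 measured T cell genes, and the named genes and defining markers of NK and innate lymphoid cells (NK/ILC), progenitors, stroma and monocytes; columns are the 3 HoxA9AA/Meis1 (AA) and 3 HoxA9wt/Meis1 (wt) mice. Thy1 stands 3.50 and 3.72 above the HoxA9wt mean in AA 1 and AA 3, where Kit is high, Clec4a3 and Ccr2 are low, and no T cell gene stands more than 0.39 above.

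The genes whose values over the 6 arrays were most like those of Thy1 were found by the root-mean-square difference of gene-centred log2 values over the 6 arrays, and the likeness follows from the 2 high mice. In order of likeness they were Nkg7, a granule membrane protein of cytotoxic lymphocytes that is also made in myeloid cells (0.446), Bmpr1a, a receptor for bone morphogenetic proteins (0.500), Adgrg1, the adhesion receptor GPR56 (0.591), Tet1, a 5-methylcytosine oxidase (0.652), Neto2, an auxiliary subunit of kainate receptors (0.671), and Enpp5, of the ectonucleotide pyrophosphatase family (0.723). Nkg7 measured 11.87, 7.94 and 10.94 in the HoxA9AA mice, against 8.64, 8.08 and 7.39 in the HoxA9wt mice. Bmpr1a measured 8.72, 4.75 and 7.57 in the HoxA9AA mice, against 4.72, 5.22 and 4.84 in the HoxA9wt mice. Adgrg1 measured 9.12, 6.80 and 9.60 in the HoxA9AA mice, against 7.19, 7.0 and 6.97 in the HoxA9wt mice. In all 3, replicate 2 lay inside or below the HoxA9wt range, as it lay inside it in Thy1. Neto2 was unlike Thy1 in this, at 9.18, 6.91 and 8.43 in the HoxA9AA mice, against 6.54, 6.42 and 6.16 in the HoxA9wt mice. There replicate 2 lay above every HoxA9wt mouse. Adgrg1 shared with Thy1 the order of the 2 high mice, replicate 3 above replicate 1, and the other 5 genes had replicate 1 above replicate 3. The differences of the 6 genes lay between 1.45 and 2.21, and none passed the test. Without HoxA9AA replicate 2, the mouse nearest to the HoxA9wt mice, Adgrg1 (2.31; limma, adjusted p = 0.0319) and Neto2 (2.43, adjusted p = 0.0470) passed. The 6 genes were picked for their likeness to Thy1 on these same arrays. That fit is therefore no separate test of them.

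Ly6g had the largest SD over the 6 arrays after Thy1 among the 6 genes, and its values differed widely within both groups. It measured 8.98, 9.85 and 7.52 in HoxA9AA/Meis1 replicates 1, 2 and 3, against 8.37, 7.63 and 5.64 in HoxA9wt/Meis1 replicates 1, 2 and 3. HoxA9AA replicate 2 was the highest and HoxA9wt replicate 3 the lowest, and HoxA9AA replicate 3 lay below 2 of the HoxA9wt mice. The means were 8.78 ± 1.18 in HoxA9AA/Meis1 and 7.21 ± 1.41 in HoxA9wt/Meis1 (SD, n = 3 each), a difference of 1.57 ± 0.84 (SE; 95% interval −0.44 to 3.58; limma, adjusted p = 0.763). This was the 17th highest difference of all genes towards higher values in HoxA9AA/Meis1, and it was larger than the SD of either group. In either direction, 99.69% of genes had a difference no larger in size. Without HoxA9wt replicate 3 the difference was 0.78.

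Several neutrophil genes were among those most like Ly6g over the 6 arrays, while others, Ltf among them, had a lower mean in HoxA9AA/Meis1. Of the 6 genes most like Ly6g by the same measure, Cxcr2 (0.635), Retnlg (0.666), Camp (0.686), S100a8 (0.710) and Mmp9 (0.778) stand on the neutrophil list. Samd9l (0.617), an interferon-inducible gene, does not. These genes were picked for their likeness to Ly6g on these same arrays, so the likeness is no separate test of them. Cxcr2, the neutrophil chemokine receptor, measured 10.51, 10.57 and 8.70 in the HoxA9AA mice, against 8.73, 9.79 and 6.09 in the HoxA9wt mice. Camp, the cathelicidin of secondary granules, measured 10.58, 10.31 and 7.74 in the HoxA9AA mice, against 9.13, 9.82 and 7.04 in the HoxA9wt mice. S100a8, a calcium-binding alarmin of neutrophils, measured 12.30, 12.22 and 10.52 in the HoxA9AA mice, against 11.23, 12.21 and 8.30 in the HoxA9wt mice. HoxA9wt replicate 3 was the lowest of the 6 mice in these 3 genes and in Ly6g. Without that mouse the differences of Camp and S100a8 were 0.07 and −0.04. HoxA9wt replicate 2 stood above HoxA9wt replicate 1 in these 3 genes, but below it in Ly6g.
The neutrophil list of 16 genes averaged 10.62, 10.58 and 9.08 in the HoxA9AA mice, against 9.99, 10.58 and 8.50 in the HoxA9wt mice. It had 13 genes with a higher mean in HoxA9AA/Meis1 (53.6% of all genes did) and a median difference of 0.76, which was 0.08 without HoxA9wt replicate 3 and 0.25 without HoxA9AA replicate 1. Of its genes 2 lay wholly above the HoxA9wt mice (6.6% of all genes did) and 1 wholly below (4.8%), and 0 passed. Mmp8, the neutrophil collagenase, measured 8.07, 11.44 and 6.07 in the HoxA9AA mice against 11.70, 12.49 and 12.00 in the HoxA9wt mice. Mmp8 had the order of Ly6g among the HoxA9AA mice, but it was not low in HoxA9wt replicate 3. Ltf, a defining marker of neutrophils, measured 7.93, 8.45 and 7.23 in the HoxA9AA mice, against 8.82, 9.77 and 5.73 in the HoxA9wt mice. HoxA9wt replicates 1 and 2 thus stood above every HoxA9AA mouse, and HoxA9wt replicate 3 was the lowest. Mmp8 and Ltf were among the 3 genes of the list with a lower mean in HoxA9AA/Meis1. The share of neutrophils in the marrow was not measured, and its part in the Ly6g values was not tested.

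**Figure D3:**
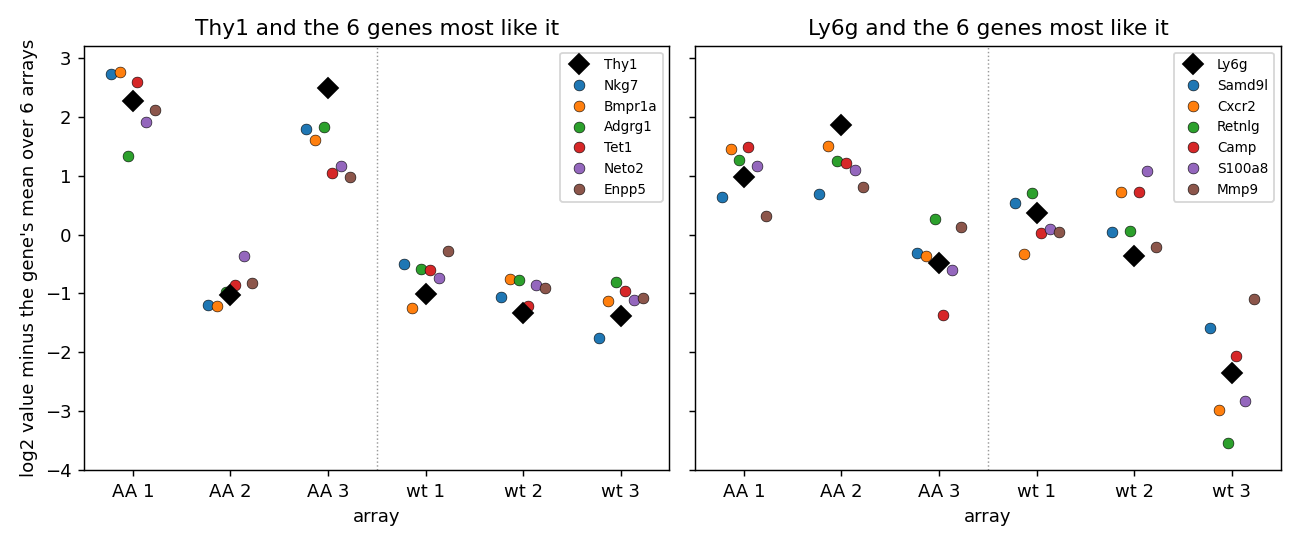
Log2 value minus the gene's own mean over the 6 arrays (vertical axis) for Thy1 and the 6 genes most like it (left) and for Ly6g and the 6 genes most like it (right); black diamonds are Thy1 and Ly6g, coloured points the other genes, and columns the HoxA9AA/Meis1 (AA) and HoxA9wt/Meis1 (wt) mice. The Thy1 panel is high in AA 1 and AA 3 alone, and the Ly6g panel is lowest in wt 3, where Ly6g measured 5.64.

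Ly6e, which is inducible by interferon and restrains the entry of several viruses, stood slightly apart in the same 2 mice as Thy1. It measured 12.01, 11.52 and 11.94 in HoxA9AA/Meis1 mice, against 11.73, 11.61 and 11.38 in HoxA9wt/Meis1 mice. Replicates 1 and 3 of HoxA9AA stood above the other 4 mice and replicate 2 among them, by far less than in Thy1. The difference was 0.25 ± 0.16 (SE; 95% interval −0.14 to 0.64; limma, adjusted p = 0.814).
Interferon response genes were measured beside it for 20 of 24 listed genes, of which 16 had a higher mean (53.6% of all genes did). Mx2, equal at 5.44 in both groups, is counted here as higher. The median difference of the list was 0.17, which was 0.10 without HoxA9AA replicate 1, 0.11 without HoxA9wt replicate 3 and 0.34 without HoxA9wt replicate 1. Of these genes, 4 had an unadjusted p under 0.05 towards higher values and 1 towards lower values (4.15% and 2.59% of all genes), and 0 passed. The list averaged 7.36, 7.36 and 7.26 in the HoxA9AA mice, against 7.49, 6.80 and 6.88 in the HoxA9wt mice, so HoxA9wt replicate 1 was the highest. Gbp5, a guanylate-binding protein, measured 7.06, 6.66 and 6.82 in the HoxA9AA mice, against 6.19, 6.18 and 6.07 in the HoxA9wt mice. Ifit2, an interferon-induced protein, went the other way, at 6.45, 7.06 and 6.68 in the HoxA9AA mice, against 7.44, 7.06 and 7.14 in the HoxA9wt mice. HoxA9AA replicate 2, the lowest of its group in Ly6e, was not low in the interferon list.

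Ly6i, a close relative of Ly6a and Ly6c, was the 1 gene of the 6 whose groups did not overlap. It measured 5.36, 5.62 and 5.31 in HoxA9AA/Meis1 mice, against 6.03, 5.71 and 5.65 in HoxA9wt/Meis1 mice. The nearest mice of the groups were 5.62 and 5.65, and all values lay in the range of the olfactory receptor genes. The difference was −0.37 ± 0.14 (SE; 95% interval −0.70 to −0.03; limma, adjusted p = 0.731). Among all genes, 4.8% were wholly lower in HoxA9AA/Meis1, and 1 gene of 6 is too few to set against that share.

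Ly6k, known mainly from the testis, was set apart by 1 mouse. It measured 8.72, 7.19 and 7.13 in HoxA9AA/Meis1 mice, against 6.98, 7.39 and 7.99 in HoxA9wt/Meis1 mice. HoxA9AA replicate 1 was the highest and HoxA9wt replicate 3 the next, with the other 4 between 6.98 and 7.39. The difference was 0.23 ± 0.47 (SE; limma, adjusted p = 0.968), and it turned to −0.29 without HoxA9AA replicate 1, to −0.01 without HoxA9wt replicate 1 and to −0.17 with array weights. Ly6d, which marks lymphoid progenitors set for the B cell path, measured 6.93, 7.07 and 6.58 in the HoxA9AA mice, against 6.93, 7.12 and 7.09 in the HoxA9wt mice. HoxA9AA replicate 3 was the lowest and the other 5 mice lay close together (difference −0.19 ± 0.14, SE; limma, adjusted p = 0.846). Among 12 genes of B cells, 11 had a higher mean (53.6% of all genes did), with a median difference of 0.17. Vpreb3 measured 7.60, 7.16 and 7.20 in the HoxA9AA mice, against 6.67, 6.78 and 6.74 in the HoxA9wt mice. It was the 1 gene of the list wholly above the HoxA9wt mice (6.6% of all genes were), and its difference of 0.59 did not pass (limma, adjusted p = 0.731). The defining marker Cd79a measured 5.70, 5.61 and 5.10 in the HoxA9AA mice, against 5.31, 5.18 and 5.20 in the HoxA9wt mice, within the range of the olfactory receptor genes.

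Among the 6 genes together, 4 had a higher and 2 a lower mean in HoxA9AA/Meis1 (53.6% and 46.4% of all genes), with a median difference of 0.24, against 0.01 over all genes. An unadjusted p under 0.05 was found for Thy1 towards higher and for Ly6i towards lower values (4.15% and 2.59% of all genes), and 0 of 6 passed the adjusted threshold. The SD was larger in the HoxA9AA group for 4 of the 6, as for 70.7% of all genes. No 2 of the Ly6 genes had the same order of mice: Ly6g was highest in HoxA9AA replicate 2, Ly6e and Ly6k in HoxA9AA replicate 1, Ly6i in HoxA9wt replicate 1 and Ly6d in HoxA9wt replicate 2.

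The genes next to Thy1 and within the Ly6 stretch were measured in the gene order of the RefSeq table. Of the 3 measured genes on either side of Thy1 on chromosome 9, Oaf, Trim29 and Nectin1 differed by 0.16, 0.01 and −0.07 and Usp2, Rnf26 and Mcam by 0.11, 0.37 and −0.07. The signs for Trim29 and Nectin1 turned when single arrays were left out (−0.055 to 0.090 and −0.135 to 0.015). Rnf26, a ubiquitin ligase of the endoplasmic reticulum, measured 9.07, 8.42 and 8.86 in the HoxA9AA mice against 8.28, 8.51 and 8.45 in the HoxA9wt mice, so it was highest in the 2 mice in which Thy1 was high. On chromosome 15 the stretch from Ly6d to Ly6g held 11 measured genes. Ly6k, Ly6a2 and Ly6g spanned more than 1 on the log2 scale between mice, and the genes among and beside them, such as Gml, Cyp11b1, Cyp11b2 and Ly6m, spanned far less.
Ly6a2 measured 11.73, 10.88 and 8.38 in the HoxA9AA mice, against 9.09, 11.42 and 10.95 in the HoxA9wt mice. Its range of 3.35 was the widest of the 11 Ly6 genes outside the 6, and the other 10 had ranges of 0.23 to 0.53. HoxA9AA replicate 3 and HoxA9wt replicate 1 were low and the other 4 high, an order unlike that of Thy1 or Ly6g (difference −0.16 ± 0.97, SE; limma, adjusted p = 0.993). The sign of this difference turned without HoxA9AA replicate 3 (0.82), HoxA9wt replicate 2 (0.31) or HoxA9wt replicate 3 (0.08).

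**Figure D4:**
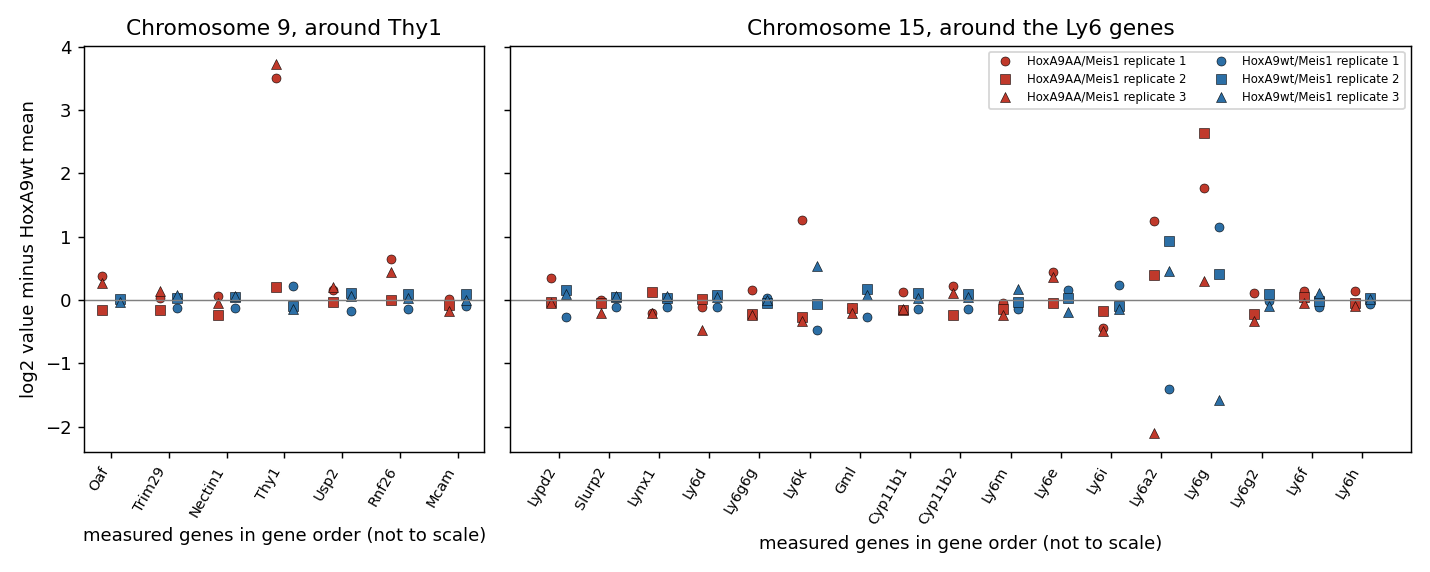
Log2 value minus the HoxA9wt mean (vertical axis) of measured genes in gene order around Thy1 on chromosome 9 (left) and from Lypd2 to Ly6h on chromosome 15 (right), with HoxA9AA/Meis1 mice in red and HoxA9wt/Meis1 mice in blue; spacing is not to scale. Thy1 stands alone among its neighbours, at 3.50 and 3.72 in HoxA9AA replicates 1 and 3, and Ly6k, Ly6a2 and Ly6g are spread while the genes around them are not.

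Other genes of the Ly6/uPAR family and other GPI-anchored proteins gave no common direction with Thy1. Of 33 measured Ly6/uPAR genes 11 had a higher and 22 a lower mean (53.6% and 46.4% of all genes), with a median difference of −0.04 and 0 passing. Of the 33 genes 2 lay wholly below the HoxA9wt mice (4.8% of all genes did). Plaur, the urokinase receptor of myeloid cells, was wholly lower, at 7.87, 8.20 and 7.93 in the HoxA9AA mice against 8.94, 8.22 and 9.09 in the HoxA9wt mice (difference −0.75 ± 0.24, SE; limma, adjusted p = 0.731). HoxA9AA replicate 2 and HoxA9wt replicate 2 were nearly equal.
Of 24 measured GPI-anchored leukocyte proteins 12 had a higher and 12 a lower mean (53.6% and 46.4% of all genes). Efna4, equal at 6.58 in both groups, is counted here as higher. Bst1, a GPI-anchored ectoenzyme of myeloid cells, ran opposite to Thy1, at 6.13, 9.45 and 5.83 in the HoxA9AA mice against 9.63, 9.96 and 9.74 in the HoxA9wt mice. Cd14, the endotoxin co-receptor of monocytes, measured 7.60, 8.20 and 7.27 in the HoxA9AA mice, against 8.68, 7.69 and 9.29 in the HoxA9wt mice. Cd52, a short glycopeptide of leukocytes, measured 11.04, 11.67 and 11.42 in the HoxA9AA mice, against 12.01, 11.84 and 11.65 in the HoxA9wt mice. These 3 had a lower mean in HoxA9AA/Meis1. Tfpi, the inhibitor of the tissue factor pathway of clotting, had a higher one, at 8.22, 8.04 and 6.70 in the HoxA9AA mice, against 6.54, 6.52 and 7.73 in the HoxA9wt mice (difference 0.72 ± 0.50, SE; limma, adjusted p = 0.821). HoxA9AA replicates 1 and 2 were its highest mice, so its order too was unlike that of Thy1.

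The enzymes that make the GPI anchor and attach it to proteins differed little between the groups. Of 28 measured genes 19 had a higher and 9 a lower mean (53.6% and 46.4% of all genes), with a median difference of 0.13, which was 0.07 without HoxA9AA replicate 3, and 3 lay wholly above the HoxA9wt mice (6.6% of all genes), with 0 passing. Pigb, a mannosyltransferase of anchor assembly, measured 9.18, 8.89 and 8.83 in the HoxA9AA mice against 8.65, 8.66 and 8.49 in the HoxA9wt mice. Pigs, a subunit of the transamidase that attaches the anchor, measured 8.90, 8.31 and 8.99 in the HoxA9AA mice, against 8.37, 8.13 and 8.31 in the HoxA9wt mice, and was highest in the 2 mice in which Thy1 was high. Pgap1, of the same list, differed widely between mice, at 9.41, 8.92 and 6.16 in the HoxA9AA mice against 8.79, 8.98 and 7.76 in the HoxA9wt mice. It was lowest in HoxA9AA replicate 3. The list averaged 8.28, 8.21 and 8.30 in the HoxA9AA mice against 8.21, 8.18 and 8.11 in the HoxA9wt mice.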

How the data were processed

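RNA of bone marrow cells from 6 mice was hybridised to 1 Affymetrix array each. The deposited log2 values (the scale is taken from their range) were made by the authors with oligo and RMA, which corrects background, normalizes by quantiles and summarises probe sets, per the submitters' processing notes; no versions are stated there. From 1.15% to 2.83% of values were identical between 2 arrays, so no array is a copy of another. Arrays give no counts; the number of mice limits precision.

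Of 35556 probe sets 21789 carried 1 symbol in the platform annotation, 1621 several and 12146 were not listed. Entrez identifiers changed 0 symbols against RefSeq GRCm38.p6. The brightest probe set per gene left 19938 genes, tested in R 4.3.3 by limma 3.58.1 (lmFit, eBayes, two-sided, Benjamini-Hochberg over all genes, threshold 0.05), after a check on simulated data. Differences are HoxA9AA/Meis1 minus HoxA9wt/Meis1. Lists are described by counts and medians without a test.

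The genes and lists were chosen with earlier results of these data known, the Thy1 pattern among them. Named genes were the 6 studied, up to 4 per list by smallest p, the 6 most like Thy1 and Ly6g, the 3 neighbours on either side, and defining markers. Eif2s3y, Uty, Kdm5d, Flt3, Pgap1, Efna4, Mx2, Ly6a2 and the other genes inside the Ly6 stretch were named after their values were seen. Alternatives were a replicate block, leaving out each array, 2 other normalizations, 2 filters on low values, probe set means, trend with robust, and array weights. Upstream windows were aligned globally with Biopython 1.88, and figures drawn with matplotlib 3.10.9.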

Additional observations from a re-analysis of the deposited data

How the results depend on the processing

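With all 6 arrays, no setting called any gene or any of the 6, as in the comparison reported, and unadjusted p values under 0.05 numbered 891 to 1430 genes. With the replicate number as a block, 0 genes were called (1117 with an unadjusted p under 0.05) and Thy1 differed by 2.48 (limma, adjusted p = 0.891). The labels do not say whether the numbers pair the mice. Deviations of same-numbered mice from their group means correlated at −0.21, −0.10 and −0.01 across genes. Deviations from a mean of 3 arrays depend on each other, so these correlations cannot show whether mice were paired. Leaving out each array in turn gave 0 to 48 genes called, 0 to 1 of the 6, and a Thy1 difference of 1.86 to 3.61. The 48 genes (17 higher, 31 lower), Thy1 among them (adjusted p = 0.00827), came without HoxA9AA replicate 2, and 1 gene, lower, came without HoxA9wt replicate 3. Without HoxA9AA replicate 2, Adgrg1, Neto2, Erg, Bst1 and Clec4a3 passed too, of which Adgrg1 and Neto2 had been picked for their likeness to Thy1. The sign turned for Ly6k, at −0.17 with array weights and −0.29 to 0.50 over the arrays left out, for Trim29, at −0.048 with array weights and −0.055 to 0.090 over the arrays left out, and over the arrays left out for Ly6a2 (−0.86 to 0.82), Flt3 (−1.73 to 0.23), Nectin1 (−0.135 to 0.015) and S100a8 (−0.04 to 1.92); the cause was not tested. No other gene's difference printed in the report changed sign or side of the threshold. Some list medians turned sign too over the arrays left out. They were those of T cells (−0.05 to 0.05), NK and innate lymphoid cells (−0.01 to 0.11) and endothelium and stroma (−0.02 to 0.05). Ly6i, whose mean lay under the median of all probe sets, could not be fitted under that filter. Thy1 and Ly6g lay well above the olfactory receptor genes in their high mice, whereas Ly6i lay within their range and Ly6d close to its top, which limits what differences in them can show.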
